A study of Mus musculus with 8 samples.

Results

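The 46 genes described here encode the machinery that copies DNA in S phase, and they were compared by sub-complex between organoids grown with and without EGF. They were given as a list of named genes by function, drawn up with earlier results of these data known, and stand among 32728 genes in the deposited count table. The list runs from origin licensing (Orc1, Orc6, Cdc6, Cdt1) and the MCM2-7 helicase through its partners (GINS, Cdc45, Mcm10), the DNA polymerases, the sliding clamp, ligation and fork protection to nucleotide supply, chromatin assembly and the E2F and cyclin E regulators. All 46 passed the filter on low counts. A second list of 69 other replication genes served as the wider pathway.

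Replication starts from origins that are loaded with inactive MCM helicases while cells are in G1, by the origin recognition complex with Cdc6 and Cdt1. At the start of S phase, kinases recruit Cdc45 and GINS to the helicase, DNA polymerase alpha with primase lays down primers, and polymerases epsilon and delta extend them while held by the PCNA clamp. Most of these genes are transcribed periodically under E2F factors, so their mRNA is high in dividing cells and low in resting cells, and EGF is a standard mitogen of intestinal epithelial culture.

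Poly(A) RNA came from mouse colon cancer organoids, which are epithelial cultures, of C57BL/6 background. All 4 groups carry CRISPR knockouts of Apc (a brake on Wnt signalling), Trp53 (which encodes p53) and Smad4 (a carrier of TGF-beta and BMP signals), so no group has these genes intact. The line apsMC706 (labelled female) and the line CTO19 (labelled male) were each cultured in both media. Control medium (EM) held B27, noggin, Galunisertib and EGF and was used for 3 days, and in noEGF the EGF was left out from the start and culture lasted 7 days. Each of the 4 groups has 2 libraries. The series calls the lines 2 biological replicates, and no label says that the 2 libraries of a group were separate cultures. P-values within a line, between the lines and for the difference between their responses therefore measure the spread between these libraries. That spread may be technical, and these p-values do not measure how far lines vary. The effect of EGF cannot be told apart from that of 3 against 7 days in culture, nor a difference of line from that of labelled sex. In bulk RNA, fewer cells in S phase and less replication mRNA per cell cannot be told apart either.

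The libraries held 35650262 to 38953838 counts, and the mitochondrial share was 2.944% to 3.676% in EM libraries against 4.134% to 5.192% in noEGF libraries. Levels are given as CPM, the count of a gene in a library scaled by TMM factors to 1e+06 counts, and a count of 0 allows up to 3 counts, or 0.0745 to 0.0868 CPM; this floor covers counting error only. RNA of the 3 disrupted genes was present in every library: Apc lay between 59.8 and 198 CPM, Trp53 between 13 and 33.3 CPM and Smad4 between 10.8 and 39.9 CPM, which does not check the edits, since counts per gene do not show them. Epithelial markers (9 genes) summed to 3032 to 3902 CPM over the 8 libraries (of 8 tested, 3 were higher and 1 lower in noEGF over both lines), while Ptprc, Cd3e, Lyz2, Lum, Col1a2 and Thy1, which mark immune cells and fibroblasts, were at most 0.14 CPM in any library. Other markers of these lists were present: Cd68 lay between 1.14 and 7.69 CPM and Acta2 between 11.3 and 31.8 CPM over the libraries, and Csf1r and Dcn reached 7.51 and 10.3 CPM in CTO19 in noEGF.

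Short promoter sequences of 6 members are shown because many replication genes are known targets of E2F factors. Sequences are from RefSeq (GRCm38.p6), read 5′ to 3′ on the gene's strand and ending just before the transcription start or, where the gene model begins earlier, before the gene model. Capitals mark the E2F-type letters TTTGGCGC, TTTCCCGC, TTTGCCGC or TTTCGCGC or their reverse complements GCGCCAAA, GCGGGAAA, GCGGCAAA and GCGCGAAA, which can overlap. Mcm5 and Mcm6 (helicase subunits) and Pola1 (the polymerase alpha catalytic subunit) hold such letters; Rrm1, Rrm2 (ribonucleotide reductase) and E2f8 (a repressor E2F) do not in the stretch shown, and over both lines Rrm2 and E2f8 are the members that fell most.
Mcm5, chr8:75109329-75109508, plus strand: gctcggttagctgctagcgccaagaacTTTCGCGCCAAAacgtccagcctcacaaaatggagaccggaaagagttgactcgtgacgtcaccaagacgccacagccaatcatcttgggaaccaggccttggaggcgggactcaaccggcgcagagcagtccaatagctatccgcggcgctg
Mcm6, chr1:128359706-128359885, minus strand: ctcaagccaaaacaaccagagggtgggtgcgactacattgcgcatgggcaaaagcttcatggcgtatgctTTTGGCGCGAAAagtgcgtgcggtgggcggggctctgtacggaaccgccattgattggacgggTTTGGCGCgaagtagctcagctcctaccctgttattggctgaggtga
Pola1, chrX:93632156-93632335, minus strand: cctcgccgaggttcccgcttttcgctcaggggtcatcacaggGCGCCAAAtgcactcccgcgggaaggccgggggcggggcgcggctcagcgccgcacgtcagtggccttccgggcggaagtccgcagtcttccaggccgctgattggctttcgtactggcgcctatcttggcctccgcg
Rrm1, chr7:102441515-102441694, plus strand: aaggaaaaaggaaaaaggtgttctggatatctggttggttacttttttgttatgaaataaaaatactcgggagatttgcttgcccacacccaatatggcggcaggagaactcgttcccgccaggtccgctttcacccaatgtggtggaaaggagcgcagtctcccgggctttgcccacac
Rrm2, chr12:24708074-24708240, plus strand: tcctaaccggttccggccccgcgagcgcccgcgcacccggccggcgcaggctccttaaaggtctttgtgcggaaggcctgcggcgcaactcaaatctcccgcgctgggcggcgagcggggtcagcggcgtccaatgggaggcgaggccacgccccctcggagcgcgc
E2f8, chr7:48881597-48881776, minus strand: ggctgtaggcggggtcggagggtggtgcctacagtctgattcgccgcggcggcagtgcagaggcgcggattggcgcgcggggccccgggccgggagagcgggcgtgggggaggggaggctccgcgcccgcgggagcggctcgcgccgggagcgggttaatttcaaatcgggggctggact

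Promoter windows from 250 bases before to 50 bases after the start were given for 37 of the 46 members. E2F-type letters stood in the windows of 14 of these 37 genes (37.8%), in 18 of 56 other replication genes (32.1%), and in 704 of 27025 genes with a RefSeq window (2.6%). CCAAT or its reverse complement ATTGG was in 22 of 37 members (59.5%) against 41.1% of all genes, and the CHR letters TTTGAA or TTCAAA in 6 of 37 (16.2%) against 20.2%. The median log2 fold change over both lines was -1.10 for the 14 members with the E2F-type letters and -0.99 for the 23 without. In apsMC706 the medians were -1.56 and -1.52, and in CTO19 they were -0.59 and -0.52. A match is a description of letters and not a binding site, and a window without them says nothing of the factor.

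Without EGF, 45 of the 46 members fell over both lines and none rose, where 23.3% of the 16719 genes tested fell and 25.5% rose (edgeR quasi-likelihood test, adjusted p under 0.05). The median log2 fold change of the members, noEGF against EM, was -0.99, with a range of -1.75 to -0.37, against 0.03 for all genes tested. The fall reached 2-fold in 22 members, where 4.1% of all genes did so. The exception was Rfc3, a clamp loader subunit, at -0.37 (standard error 0.16, adjusted p = 0.0858). Adjusted p of the 45 lay between 0.000104 and 0.0241. That test counted the 2 libraries of each line and medium as separate. If they are technical replicates, its p-values are too small. Both noEGF libraries lay under both EM libraries within each line for 45 of 46 members, against 24.4% of all genes. When the libraries of each line and medium were summed, so that the 2 lines were the only replicates (1 residual degree of freedom), no member and no gene of 16719 passed, 36 members and 2809 genes had an unadjusted p under 0.05, and all 46 members had negative values. Against a fold change of 1.5 in place of any change, 20 members were lower. The share of all genes under that test is not given here. Mcm7, Gins2, Lig1, Timeless, Chaf1b and Ccne1 were no longer past the threshold when either apsMC706 noEGF library was left out, which left 39 members.

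Within lines, all 46 members fell in apsMC706 (background 33.1%) and 45 of 46 in CTO19 (background 33.3%). In apsMC706 the median was -1.47 with a range of -2.21 to -0.67, and 41 members were at least 2-fold lower, where 6.9% of all genes were. In CTO19 the median was -0.52 with a range of -1.32 to 0.02, and 4 members (Orc1, Pole2, Rrm2 and E2f8) were at least 2-fold lower, where 4.92% of all genes were. Against a fold change of 1.5, 13 members were lower in CTO19, again without a share of all genes. The summed level of the 46 genes was 5301 and 5342 CPM in apsMC706 in EM and 1946 and 1882 CPM in noEGF, a 2.78-fold fall. In CTO19 it was 4404 and 4538 CPM in EM and 3084 and 2881 CPM in noEGF, a 1.5-fold fall.

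**Figure D1:**
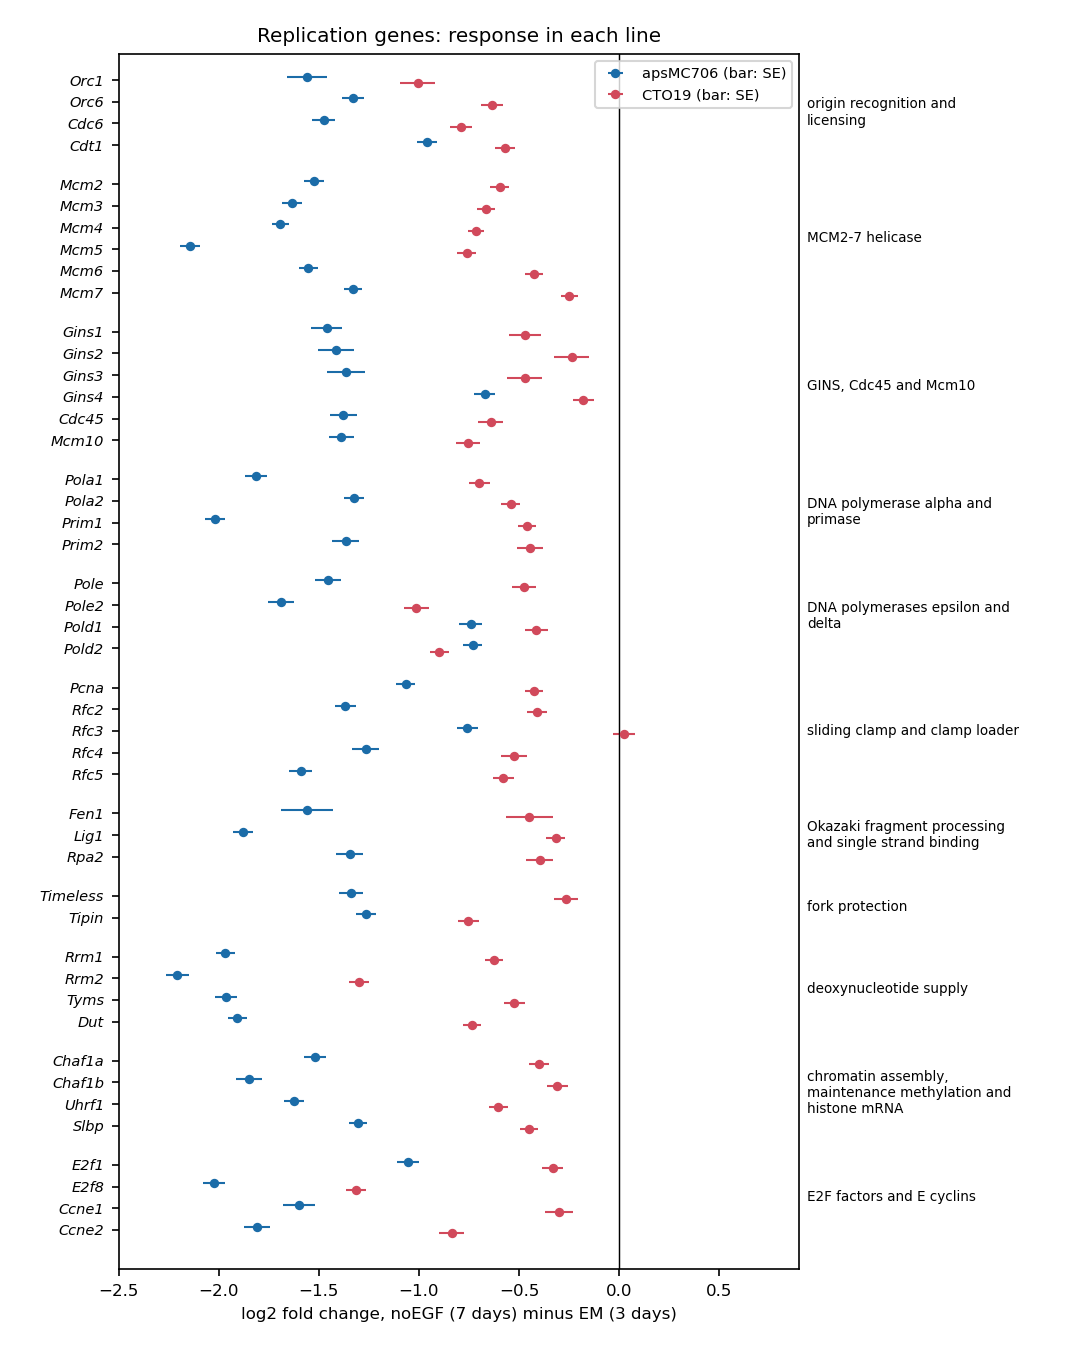
Response of each of the 46 members in apsMC706 and in CTO19, as the log2 fold change of noEGF (7 days) against EM (3 days) on the x axis, with bars of 1 SE and genes grouped by sub-complex. Values are negative except for Rfc3 in CTO19 (0.02), and the apsMC706 points lie further left for every member but Pold2.

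All 4 origin licensing members were lower in each line, with medians of -1.40 in apsMC706 and -0.71 in CTO19. Licensing genes outside the members did not all follow. Of 5 such genes in the second list, 3 were lower in apsMC706 (33.1% of all genes) and Orc3 was higher, with a median of -0.13. In CTO19, 4 of these 5 were lower (33.3% of all genes), with a median of -0.37. Orc1, a subunit of the origin recognition complex, was at 14.9 and 14.2 CPM in apsMC706 in EM, 4.83 and 5.05 in apsMC706 in noEGF, 21.2 and 20.3 in CTO19 in EM, and 11.3 and 9.42 in CTO19 in noEGF. Its noEGF libraries lay below the EM libraries of the same line, and its log2 fold change over both lines was -1.27 (standard error 0.13, adjusted p = 0.000382). Cdt1, which loads the helicase and is destroyed in S phase, moved least of the 4 over both lines, at 100.3 and 103 CPM in apsMC706 in EM, 52.8 and 51.6 in apsMC706 in noEGF, 63.9 and 64.7 in CTO19 in EM, and 45.5 and 41.2 in CTO19 in noEGF. The log2 fold change of Cdt1 over both lines was -0.77 (standard error 0.089, adjusted p = 0.000581). Orc6 and Cdc6, the latter an ATPase of helicase loading, fell by 0.98 and 1.13 on the log2 scale.

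All 6 MCM2-7 subunits, the motor of the replicative helicase, fell in each line, with medians of -1.59 in apsMC706 and -0.63 in CTO19. Mcm5 (gene span chr8:75109569-75128439 in mm10, plus strand, as in GENCODE M21 for the other spans given) fell most over both lines, at 293 and 299 CPM in apsMC706 in EM, 67.9 and 66.1 in apsMC706 in noEGF, 211 and 225 in CTO19 in EM, and 134 and 123 in CTO19 in noEGF. The noEGF libraries of Mcm5 lay below the EM libraries in each line, by 4.42-fold in apsMC706 and 1.69-fold in CTO19. The log2 fold change over both lines was -1.45 (standard error 0.27, adjusted p = 0.0043). Mcm7 fell least over both lines, at 222 and 236 CPM in apsMC706 in EM, 92.2 and 90.3 in apsMC706 in noEGF, 201 and 203 in CTO19 in EM, and 175 and 165 in CTO19 in noEGF. For Mcm7 the value over both lines was -0.79 (standard error 0.21, adjusted p = 0.0181), made up of -1.33 in apsMC706 and -0.25 in CTO19. Mcm6, the highest per kilobase of the 6 in each group, was at 289.9 and 291 CPM in apsMC706 in EM, 102 and 96.2 in apsMC706 in noEGF, 247 and 260.3 in CTO19 in EM, and 196 and 181 in CTO19 in noEGF. For Mcm6 the log2 fold change over both lines was -0.99 (standard error 0.22, adjusted p = 0.00887). Mcm2, Mcm3 and Mcm4 had log2 fold changes of -1.06, -1.15 and -1.2 over both lines.

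Because the subunits act in 1 ring, their levels were also set side by side per kilobase of transcript. In EM the highest and lowest subunits differed 2.17-fold in apsMC706 (Mcm6 at 99.8 and Mcm4 at 46 CPM per kilobase) and 1.6-fold in CTO19 (Mcm6 at 87.1 and Mcm2 at 54.6). In noEGF the ratios were 2.39 (34 and 14.2) and 1.8 (64.8 and 36.1). The ratio of Mcm5 to Mcm7 per kilobase was 1.16 and 1.11 in apsMC706 in EM and 0.645 and 0.641 in noEGF, so Mcm5 passed from above to below Mcm7. In CTO19 it was 0.921 and 0.967 in EM and 0.671 and 0.653 in noEGF.

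**Figure D2:**
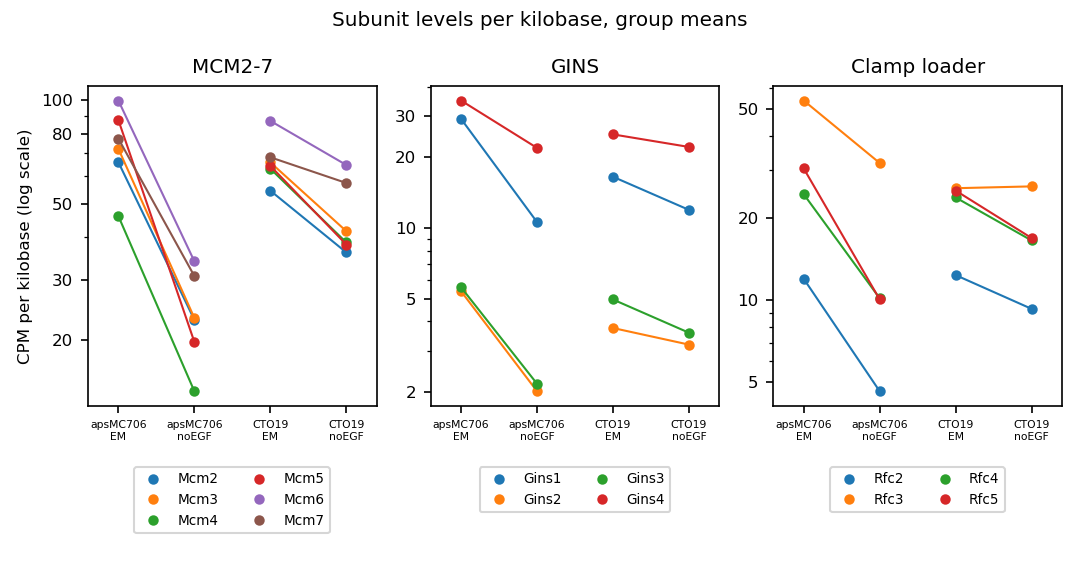
Group mean levels per kilobase of transcript, on a log axis, of the subunits of the MCM2-7 helicase, GINS and the clamp loader in the 4 groups. Lines join EM to noEGF within a line of organoids; Rfc3 falls in apsMC706 and has nearly equal means in CTO19, and Mcm5 crosses Mcm7 in apsMC706.

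GINS, Cdc45 and Mcm10, which join the helicase as it becomes active, were lower in all 6 members in each line, with medians of -1.38 in apsMC706 and -0.47 in CTO19. Mcm10, needed for the start of unwinding, fell most over both lines, at 59.3 and 58.7 CPM in apsMC706 in EM, 23.7 and 21.3 in apsMC706 in noEGF, 56 and 56.9 in CTO19 in EM, and 35.3 and 31.7 in CTO19 in noEGF. Its log2 fold change was -1.07 (standard error 0.13, adjusted p = 0.000797). Gins4 (the Sld5 subunit) fell least over both lines, at 48 and 46.4 CPM in apsMC706 in EM, 29.8 and 29.5 in apsMC706 in noEGF, 32.7 and 35 in CTO19 in EM, and 29.4 and 30.4 in CTO19 in noEGF. The 2 media did not overlap in either line for Gins4, and the log2 fold change over both lines was -0.42 (standard error 0.11, adjusted p = 0.0137). Cdc45 fell by 1.01 on the log2 scale. Gins1, Gins2 and Gins3 fell by 0.97, 0.82 and 0.91. Gins4 was the highest and Gins2 the lowest GINS subunit per kilobase in all 4 groups, by 6.5-fold to 10.9-fold. Of the 46 members, 17 share exon bases with another gene. Gins2 shares 2758 of its 4097 exon bases with Gse1 on the other strand, and the kit does not mark strand, so its level is uncertain; the same limit applies to Fen1 (1909 of 2422 bases with Gm10143), Chaf1a (4648 of 8854 with Ubxn6), Ccne2 (609 of 3495 with Ints8), Rfc2 (952 of 6303 with Lat2) and Rfc4 (194 of 1533 with Eif4a2). The others that share exon bases, to which it also applies, are Orc1, Orc6, Mcm7, Cdc45, Pole, Pole2, Rfc5, Lig1, Timeless, Slbp and E2f8.

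DNA polymerase alpha with primase makes the primers for both strands, and all 4 members fell in each line. Pola1 was at 98 and 99.9 CPM in apsMC706 in EM, 29.7 and 26.7 in apsMC706 in noEGF, 90.2 and 84.9 in CTO19 in EM, and 54.7 and 53.2 in CTO19 in noEGF. The groups did not overlap between media within a line, and the log2 fold change over both lines was -1.25 (standard error 0.22, adjusted p = 0.00317). Prim1, the catalytic primase subunit, was at 85.1 and 82.1 CPM in apsMC706 in EM, 21.1 and 20.2 in apsMC706 in noEGF, 66.7 and 66.8 in CTO19 in EM, and 49.9 and 47.2 in CTO19 in noEGF. Prim1 fell 4.05-fold in apsMC706 and 1.38-fold in CTO19, and its log2 fold change over both lines was -1.23 (standard error 0.304, adjusted p = 0.0132). Prim2, the large primase subunit, was at 31.1 and 31.7 CPM in apsMC706 in EM, 12.3 and 12.1 in apsMC706 in noEGF, 27.8 and 30.8 in CTO19 in EM, and 22.2 and 20.9 in CTO19 in noEGF. Over both lines Prim2 changed by -0.90 (standard error 0.18, adjusted p = 0.00606) on the log2 scale. Pola2, the regulatory subunit of polymerase alpha, was at -0.93 over both lines. The ratio of Prim1 to Prim2 per kilobase was 3.42 and 3.23 in apsMC706 in EM and 2.14 and 2.09 in noEGF, and 3 and 2.71 in CTO19 in EM and 2.81 and 2.82 in noEGF.

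The leading and lagging strand polymerases, epsilon (Pole, Pole2) and delta (Pold1, Pold2), fell with all 4 members past the threshold in each line. Pole2, an accessory subunit of epsilon, was at 26.2 and 26.2 CPM in apsMC706 in EM, 8.1 and 8.14 in apsMC706 in noEGF, 25.7 and 25.5 in CTO19 in EM, and 12.9 and 12.4 in CTO19 in noEGF. Its log2 fold change over both lines was -1.35 (standard error 0.14, adjusted p = 0.000376). Pole, its catalytic subunit, was at -0.96. Pold1, the catalytic subunit of delta, moved least of these 4 over both lines, at 76.4 and 74.7 CPM in apsMC706 in EM, 46.9 and 43.5 in apsMC706 in noEGF, 65.6 and 68.2 in CTO19 in EM, and 53 and 47.4 in CTO19 in noEGF. For Pold1 the log2 fold change over both lines was -0.58 (standard error 0.084, adjusted p = 0.00144). Pold2 (chr11:5872180-5878292, minus strand), the other delta subunit, was at 77.7 and 79.6 CPM in apsMC706 in EM, 46.7 and 48.1 in apsMC706 in noEGF, 76.2 and 81.6 in CTO19 in EM, and 43.2 and 41.4 in CTO19 in noEGF. Both lines were lower in noEGF, and the log2 fold change of Pold2 was -0.73 in apsMC706 and -0.90 in CTO19. Over both lines Pold2 had the smallest adjusted p of the members, -0.81 (standard error 0.059, adjusted p = 0.000104).

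The sliding clamp Pcna (chr2:132249162-132253314, minus strand), which holds polymerases on DNA, had the highest level per kilobase of the 46 genes, 287 CPM per kilobase over all libraries. It was at 787 and 793 CPM in apsMC706 in EM, 384 and 369.7 in apsMC706 in noEGF, 320.3 and 343 in CTO19 in EM, and 256 and 238 in CTO19 in noEGF. Pcna fell in each line without overlap, and its log2 fold change over both lines was -0.75 (standard error 0.13, adjusted p = 0.00363). The clamp loader opens the clamp and sets it on DNA. Rfc5 was at 86.3 and 83.7 CPM in apsMC706 in EM, 26.9 and 29.4 in apsMC706 in noEGF, 71 and 69.9 in CTO19 in EM, and 49.2 and 45.2 in CTO19 in noEGF. Over both lines Rfc5 changed by -1.08 (standard error 0.200, adjusted p = 0.004) on the log2 scale. Rfc3 (chr5:151642756-151651242, minus strand) was at 70.6 and 71.3 CPM in apsMC706 in EM, 42.3 and 41.4 in apsMC706 in noEGF, 33.4 and 34.3 in CTO19 in EM, and 32.5 and 36.3 in CTO19 in noEGF. In apsMC706 Rfc3 fell by 0.76 on the log2 scale, but in CTO19 the 2 media overlapped, at 0.02 (standard error 0.056, adjusted p = 0.728). Rfc2 and Rfc4 fell by 0.89 each on the log2 scale. Per kilobase, the highest clamp loader subunit exceeded the lowest by 4.49-fold in apsMC706 in EM and 6.85-fold in noEGF. In CTO19 the ratios were 2.08-fold in EM and 2.81-fold in noEGF. Rfc3 was highest and Rfc2 lowest per kilobase in each group, and the level of Rfc2 is uncertain for the overlap stated above.

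In Okazaki fragment processing, Lig1 (chr7:13277283-13311433, plus strand), the ligase that seals fragments, was at 170.0 and 176 CPM in apsMC706 in EM, 48.2 and 45.7 in apsMC706 in noEGF, 138 and 143 in CTO19 in EM, and 117 and 108 in CTO19 in noEGF. It fell by 1.88 on the log2 scale in apsMC706 and by 0.32 in CTO19, and the value over both lines was -1.10 (standard error 0.31, adjusted p = 0.0213). Rpa2, a subunit of the single strand binding protein, was at 64.2 and 65 CPM in apsMC706 in EM, 25.9 and 24.9 in apsMC706 in noEGF, 39.2 and 44.9 in CTO19 in EM, and 33.5 and 30.4 in CTO19 in noEGF. Over both lines Rpa2 changed by -0.87 (standard error 0.19, adjusted p = 0.00812) on the log2 scale. Fen1, the flap endonuclease, had a log2 fold change of -0.99 over both lines and was the lowest member per kilobase (2.04 CPM per kilobase), with the uncertainty stated above. The fork protection pair, which keeps polymerase and helicase together, was lower in both members in each line. Tipin was at 89.6 and 90.9 CPM in apsMC706 in EM, 39.6 and 35.5 in apsMC706 in noEGF, 67.1 and 66.5 in CTO19 in EM, and 40.1 and 39.1 in CTO19 in noEGF. Over both lines Tipin changed by -1.01 (standard error 0.11, adjusted p = 0.000436) on the log2 scale. The media did not overlap for Tipin in either line. Its partner Timeless was at 63.5 and 64.3 CPM in apsMC706 in EM, 25.7 and 24.8 in apsMC706 in noEGF, 55.3 and 57 in CTO19 in EM, and 49.9 and 43.6 in CTO19 in noEGF. Over both lines Timeless changed by -0.80 (standard error 0.21, adjusted p = 0.0175) on the log2 scale.

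Nucleotide supply had the lowest median of the sub-complexes, -1.31 over both lines, with all 4 members more than 2-fold lower over both lines. Rrm2 (chr12:24708241-24714146, plus strand), the small subunit of ribonucleotide reductase, had the largest fall of the 46 over both lines, at 159.6 and 163 CPM in apsMC706 in EM, 34.8 and 34.9 in apsMC706 in noEGF, 216 and 231 in CTO19 in EM, and 96.1 and 85.9 in CTO19 in noEGF. The fall was 4.62-fold in apsMC706 and 2.46-fold in CTO19, and the log2 fold change over both lines was -1.75 (standard error 0.18, adjusted p = 0.000389). Tyms, thymidylate synthase, moved least over both lines of the 4, at 85.4 and 86.9 CPM in apsMC706 in EM, 23 and 21.1 in apsMC706 in noEGF, 60.1 and 64.8 in CTO19 in EM, and 43.5 and 43.4 in CTO19 in noEGF. For Tyms the log2 fold change over both lines was -1.24 (standard error 0.28, adjusted p = 0.00951). The noEGF libraries of Tyms lay below EM in each line, further in apsMC706. Rrm1, the large reductase subunit, was at 407 and 421 CPM in apsMC706 in EM, 108 and 103 in apsMC706 in noEGF, 391 and 400.1 in CTO19 in EM, and 267 and 246 in CTO19 in noEGF. For Rrm1 the log2 fold change over both lines was -1.30 (standard error 0.26, adjusted p = 0.00604). Dut, which removes dUTP, fell by 1.32 on the log2 scale. The ratio of Rrm2 to Rrm1 per kilobase was 0.714 and 0.704 in apsMC706 in EM and 0.586 and 0.616 in noEGF, and 1.01 and 1.05 in CTO19 in EM and 0.656 and 0.637 in noEGF.

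Chromatin assembly and maintenance methylation genes also fell in each line, all 4 of them. Uhrf1, which guides DNA methylation to new DNA, was at 167 and 168 CPM in apsMC706 in EM, 53.7 and 54.9 in apsMC706 in noEGF, 220.4 and 230.2 in CTO19 in EM, and 156 and 141 in CTO19 in noEGF. Over both lines Uhrf1 changed by -1.11 (standard error 0.201, adjusted p = 0.00367) on the log2 scale. Chaf1b, of the histone chaperone CAF-1, was at 30.1 and 30.6 CPM in apsMC706 in EM, 8.05 and 8.8 in apsMC706 in noEGF, 49 and 51.2 in CTO19 in EM, and 41.1 and 39.8 in CTO19 in noEGF. It was 3.6-fold lower in apsMC706 and fell by 0.31 on the log2 scale in CTO19, where the libraries of the 2 media did not overlap; over both lines its log2 fold change was -1.06 (standard error 0.300, adjusted p = 0.0225). The CTO19 libraries of Chaf1b in noEGF lay above the apsMC706 libraries in EM. Slbp, which binds histone mRNA, was at 112 and 113 CPM in apsMC706 in EM, 44.3 and 46.6 in apsMC706 in noEGF, 78 and 82.1 in CTO19 in EM, and 58.9 and 58.3 in CTO19 in noEGF. Over both lines Slbp changed by -0.88 (standard error 0.17, adjusted p = 0.00459) on the log2 scale. Chaf1a fell by 0.96 on the log2 scale.

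The E2F factors and E cyclins were lower in all 4 members in each line. E2f8, a repressor E2F that is itself induced in S phase, was at 94.8 and 93.7 CPM in apsMC706 in EM, 24 and 22.3 in apsMC706 in noEGF, 149 and 137 in CTO19 in EM, and 57.6 and 57.5 in CTO19 in noEGF. Both media were well apart in each line, and the log2 fold change over both lines was -1.67 (standard error 0.15, adjusted p = 0.000205). E2f1, an activator E2F, was at 44.4 and 43.9 CPM in apsMC706 in EM, 21.2 and 21.3 in apsMC706 in noEGF, 36.8 and 38.8 in CTO19 in EM, and 31.1 and 29 in CTO19 in noEGF. Over both lines E2f1 changed by -0.69 (standard error 0.15, adjusted p = 0.00683) on the log2 scale. The ratio of E2f8 to E2f1 per kilobase was 1.58 in both apsMC706 EM libraries and 0.838 and 0.777 in noEGF, and 3 and 2.62 in CTO19 in EM and 1.37 and 1.47 in noEGF. Ccne1 and Ccne2, the cyclin E genes that pair with Cdk2, fell by 0.94 and 1.32 on the log2 scale.

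**Figure D3:**
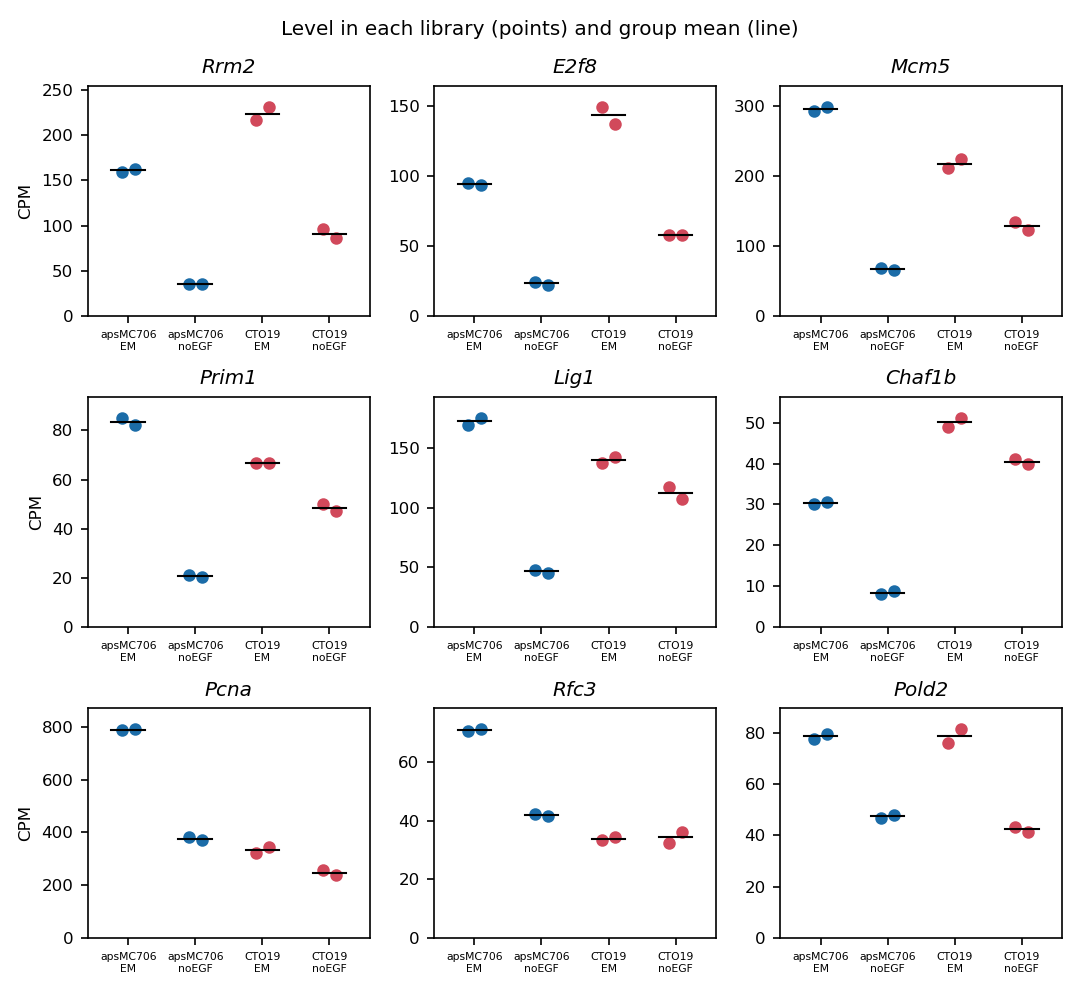
Levels in each of the 8 libraries (points) with group means (lines), in CPM from 0, for 9 members named in the text. In Rfc3 the CTO19 media overlap, and Pold2 falls in both lines; in the other 7 the media are apart within each line.

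The fall was deeper in apsMC706 than in CTO19 for 45 of 46 members, where 30.4% of all genes had a higher difference of the responses (CTO19 minus apsMC706) past the threshold and 25.6% a lower. The median difference was 0.95 log2 over the members against 0.06 over all genes, and it exceeded 2-fold in 17 members (8.15% of all genes). Lig1 had the largest, 1.56 (standard error 0.069, adjusted p = 2.35e-10) on the log2 scale. It was followed by Prim1 at 1.56 (standard error 0.069, adjusted p = 2.48e-10) and Chaf1b at 1.54 (standard error 0.084, adjusted p = 1.81e-09). Tyms, at 1.44 (standard error 0.075, adjusted p = 1.09e-09), and Mcm5, at 1.38 (standard error 0.068, adjusted p = 6.1e-10), were the next. These genes do different work: ligation, primer synthesis, histone deposition, thymidylate synthesis and helicase motor. Pold2 alone went the other way, at -0.17 (standard error 0.068, adjusted p = 0.0496), a value at the threshold that was not past it with the DESeq2 Wald test (adjusted p = 0.0584) or when any 1 of 5 libraries was left out. The smallest positive differences were Pold1 (0.33), Cdt1 (0.39) and Gins4 (0.49). Across the 46 genes the responses of the lines, which share no library, had a Pearson r of 0.464 and a Spearman rho of 0.401, a description over genes that are not independent.

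The lines were also compared within each medium, on the same libraries as the responses. In EM, CTO19 was past the threshold and higher than apsMC706 for 8 members (37.5% of all genes) and lower for 27 (33.8%), with a median of -0.18. In noEGF it was higher for 39 (45.7% of all genes) and lower for 4 (34.3%), with a median of 0.75. Of the members, 21 were lower in CTO19 in EM and higher in noEGF, 8 were higher in both media and 3 lower in both. The share of all genes with these joint patterns is not given here, so these counts are a description only. In EM, the largest deficits in CTO19 were Pcna at -1.25 (standard error 0.046, adjusted p = 2.56e-12), Rfc3 at -1.07, Gins1 at -0.82, Dut at -0.79 and Cdt1 at -0.66. Gins1 was at 31.6 and 31.9 CPM in apsMC706 in EM, 11.9 and 11.2 in apsMC706 in noEGF, 16.4 and 19.5 in CTO19 in EM, and 13.2 and 12.7 in CTO19 in noEGF. Dut was at 183 and 179.6 CPM in apsMC706 in EM, 49.3 and 47.2 in apsMC706 in noEGF, 101 and 108 in CTO19 in EM, and 63.9 and 61.9 in CTO19 in noEGF. The libraries of the lines did not overlap in EM for either gene. The largest excesses were Chaf1b at 0.72 (standard error 0.053, adjusted p = 1.1e-08), E2f8 at 0.60, Orc1 at 0.51, Rrm2 at 0.47 and Mcm4 at 0.46. In noEGF the largest excess was that of Chaf1b at 2.26 (standard error 0.064, adjusted p = 1.09e-13), followed by Uhrf1 at 1.45, Mcm4 at 1.44, Rrm2 at 1.38 and Chaf1a at 1.35. Pcna at -0.61, Rfc3 at -0.28, Cdt1 at -0.27 and Pold2 at -0.16 (standard error 0.050, adjusted p = 0.00762) were the 4 members lower in CTO19. Mcm4 was at 167 and 164 CPM in apsMC706 in EM, 50.2 and 52 in apsMC706 in noEGF, 228 and 226 in CTO19 in EM, and 141 and 136 in CTO19 in noEGF. Chaf1a was at 77.4 and 78.2 CPM in apsMC706 in EM, 27.5 and 26.7 in apsMC706 in noEGF, 88.8 and 93.7 in CTO19 in EM, and 72.4 and 65.9 in CTO19 in noEGF. For both genes the apsMC706 libraries in noEGF were the lowest of the 8.

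**Figure D4:**
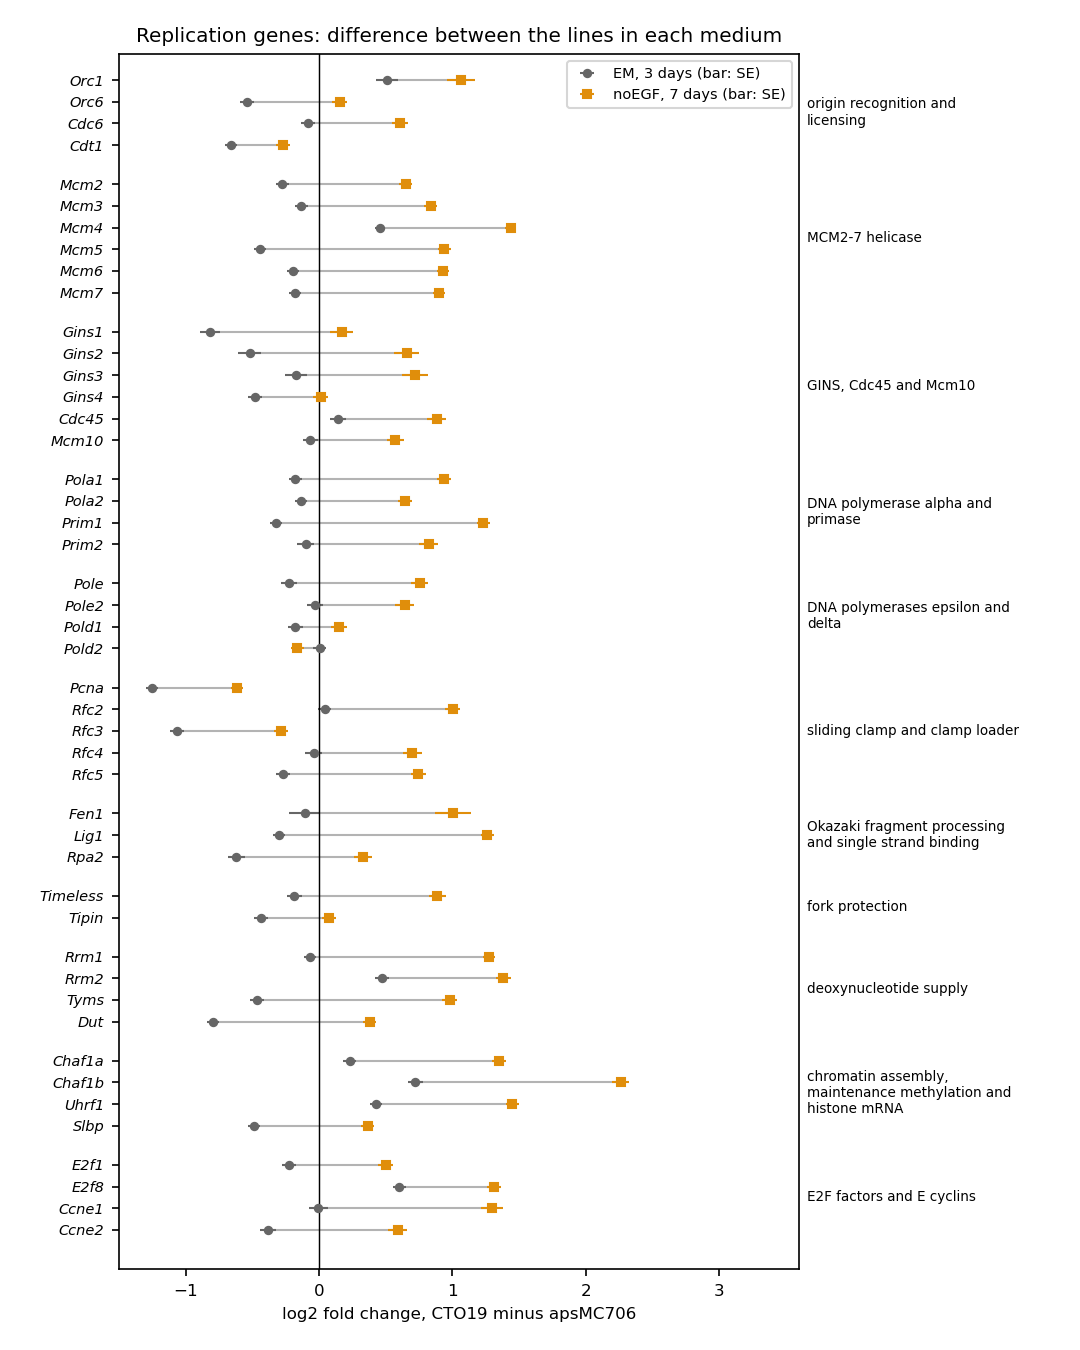
Difference between the lines for each member, CTO19 against apsMC706 as log2 fold change on the x axis, in EM (grey circles) and noEGF (orange squares), with bars of 1 SE. The orange points lie right of the grey ones for every member but Pold2, and Pcna, Rfc3 and Cdt1 stay below 0 in both media.

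The 5 proliferation markers were all past the threshold and lower over both lines. Their summed level was 1763 and 1788 CPM in apsMC706 in EM, 613 and 621 CPM in noEGF, 1415 and 1248 CPM in CTO19 in EM, and 801 and 749 CPM in noEGF. They differed less between the lines than the members did in noEGF and in the difference of the responses, but not in EM. There all 5 were lower in CTO19 (33.8% of all genes), with a median of -0.44 against -0.18 for the members. In noEGF, 2 of the 5 were higher and 2 lower in CTO19, with a median of -0.03 against 0.75 for the members. The difference of the responses was higher for all 5, with a median of 0.54 against 0.95, and 0 reached 2-fold. Mki67, a marker of cycling cells, was at 951 and 960.2 CPM in apsMC706 in EM, 294 and 295 in apsMC706 in noEGF, 859.7 and 677 in CTO19 in EM, and 481 and 452 in CTO19 in noEGF. Over the 8 libraries Mki67 was higher in EM than in noEGF within each line. Mature intestinal markers (5 of 10 tested, 2 higher and 1 lower) summed to 95.7 and 96.4 CPM in apsMC706 in EM and 813 and 846 CPM in noEGF, and to 30.6 and 33.2 CPM and 110 and 86.2 CPM in CTO19. Mmp7 was at 49.1 and 47.3 CPM in apsMC706 in EM, 772 and 808 in noEGF, 17.8 and 20.7 in CTO19 in EM and 105 and 81.2 in noEGF, while Fabp1 was at 0 in every library. Immune markers (3 of 8 tested, all 3 higher) summed to 1.24 to 1.61 CPM and 8.00 to 8.13 CPM in apsMC706 and to 5.14 to 5.47 CPM and 11.7 to 13.2 CPM in CTO19, EM before noEGF. The 3 called were Cd68, at 1.14 and 1.39 CPM in apsMC706 in EM, 7.69 and 7.56 in noEGF, 4.57 and 4.35 in CTO19 in EM and 5.06 and 5.49 in noEGF, Itgam (at most 0.696 CPM) and Csf1r. Csf1r was at most 0.0545 CPM in apsMC706, and in CTO19 its EM libraries held 0.782 and 0.534 CPM against 7.51 and 5.42 CPM without EGF. Fibroblast markers (5 of 9 tested, 1 higher) summed in the same order to 16.1 to 16.8, 19.5 to 20.3, 32.1 to 33.8 and 38.3 to 40.9 CPM. The 1 called was Dcn, at most 0.116 CPM in EM in either line, 0.355 and 0.0792 CPM in apsMC706 in noEGF and 10.3 and 9.49 CPM in CTO19 in noEGF. Acta2, at 27.4 to 31.8 CPM in CTO19 and 11.3 to 12.8 CPM in apsMC706, was not past the threshold between the media. Between the lines it was higher in CTO19, by 1.33 log2 in EM and 1.30 in noEGF. Endothelial and glial markers (4 of 7 tested, 2 higher) summed to 7.22 to 8.23, 28.9 to 29.0, 3.15 to 3.91 and 8.70 to 9.36 CPM. Their part in the fall of the members was not tested, nor was that of the mitochondrial share.

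Of the other 69 replication genes, 52 fell over both lines (23.3% of all genes) and none rose by this test (the DESeq2 Wald test called 1 higher; 1 had a positive value at an unadjusted p under 0.05), with a median of -0.65 and a range of -1.52 to 0.76. Among the largest falls were Asf1b (a histone chaperone) at -1.52 (standard error 0.23, adjusted p = 0.00155), E2f2 at -1.5 (standard error 0.37, adjusted p = 0.0139), Cdc7 (the kinase that fires origins) at -1.35 (standard error 0.17, adjusted p = 0.000888) and Skp2 (a ubiquitin ligase subunit) at -1.31 (standard error 0.31, adjusted p = 0.0108). Those not past the threshold over both lines were Orc3, Orc4, Mcm8, Mcm9, Mcmdc2, Pold4, Poldip2, Chtf8, Rnaseh2c, Atr, Rrm2b, Dctd, Samhd1, Rbbp4, E2f5, Tfdp2 and Rb1. Within lines, 57 of the 69 fell in apsMC706 (33.1% of all genes) and 54 in CTO19 (33.3%). In apsMC706 5 rose (Orc3, Pold4, Poldip2, Atr and E2f5), and in CTO19 4 rose (Samhd1, Rbbp4, Tfdp2 and Rb1). The share of all genes that rose within a line is not given here. Pold4, a small delta subunit, was singled out after its values were seen: it was at 2.91 and 3.05 CPM in apsMC706 in EM, 12.3 and 11.7 in apsMC706 in noEGF, 7.18 and 6.55 in CTO19 in EM, and 5.22 and 4.72 in CTO19 in noEGF. It rose in apsMC706 at 2.01 (standard error 0.11, adjusted p = 4.8e-10) and fell in CTO19 at -0.47 (standard error 0.11, adjusted p = 0.00142), where the catalytic subunit Pold1 fell in both. Rrm2b, the p53-inducible reductase subunit, was at 16 and 16.6 CPM in apsMC706 in EM, 17.1 and 17.5 in apsMC706 in noEGF, 16.3 and 16.9 in CTO19 in EM, and 17 and 17 in CTO19 in noEGF, where Rrm2 fell.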

How the data were processed

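The deposited table holds raw read counts per Ensembl gene, not normalized by the authors, for 8 libraries of poly(A) RNA. Per the submitters' processing notes, reads were aligned with STAR 2.7.0a to mm10; the counting program, strand setting and annotation were not given in the sources used here. Of 32728 identifiers, 32680 were found in GENCODE M21. Tests used edgeR 4.0.16 under R 4.3.3: filterByExpr left 16719 genes with 99.971% of counts, TMM factors scaled the libraries, and quasi-likelihood F-tests with robust moderation were two-sided and adjusted over all tested genes (threshold 0.05). The comparison over both lines modelled line plus medium (with 5 residual degrees of freedom); the others used 4 group means (4). Per-kilobase levels divide CPM by the longest principal transcript.

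The 46 members, the lists of other replication genes and markers and the motif letters were chosen with earlier results of these data known. Values in every library are given for the member of largest and of smallest fall in each sub-complex, for the most abundant per kilobase, and for up to 5 members with the largest differences between lines in each direction. Alternatives were size factors of DESeq2, its Wald test (1.42.0), upper-quartile factors, no filter, a replicate block, a test against a 1.5-fold change, summed libraries, the 4 libraries of a comparison, and each library left out. No pairing by replicate number was seen across genes, where deviations of same-numbered libraries correlated at -0.00825 to 0.0485. The mitochondrial share was higher in replicate 1 than in replicate 2 in each group. The models were run on simulated data with planted changes that were the same in both lines. The simulated spread between libraries was smaller than the spread found by the model over both lines. The simulation therefore does not check that test at its own spread. Some genes of the fixed lists are not reported here.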

Additional observations from a re-analysis of the deposited data

Results flagged for a closer look

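The responses of the 2 lines differed by the test of the difference itself for each result below (CTO19 minus apsMC706, log2; a positive value means a smaller fall in CTO19). Of the members, 45 had a higher and 1 a lower difference, and of the 69 other replication genes 51 had a higher and 9 a lower one. Over all genes tested, 30.4% had a higher and 25.6% a lower difference. The differences were 1.56 for Prim1 and 1.56 for Lig1, 1.54 for Chaf1b, 1.44 for Tyms and 1.38 for Mcm5. They were 0.91 for Rrm2, 0.78 for Rfc3, 0.49 for Gins4, 0.39 for Cdt1 and 0.33 for Pold1. Pold2 was at -0.17 and Pold4 at -2.47, a rise in apsMC706 and a fall in CTO19.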

How the results depend on the processing

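DESeq2 size factors, upper-quartile factors and no filter on low counts left all 177 single-gene results on the same side of the threshold and in the same direction, and moved the median of all genes by no more than a shift of -0.0961 log2. Against a 1.5-fold change rather than any change, 20 members and 14 other replication genes were lower over both lines, 13 and 11 were lower in CTO19, and of the other genes 1 rose in apsMC706 and 0 in CTO19. Under the same test the difference of the responses had 0 members lower, with 24 other genes higher and 3 lower. Between the lines that test left 1 member higher and 4 lower in EM, with 1 and 8 other genes, and 25 higher and 0 lower in noEGF, with 16 and 5 other genes. No share of all genes is given for the counts of the 1.5-fold test. Summed libraries gave 0 members and 0 other genes lower over both lines. The DESeq2 Wald test called 1 other gene higher over both lines, 3 other genes higher in CTO19 in EM, and 0 members with a lower difference of the responses. With the replicate number as a block, 45, 46 and 45 members were lower over both lines, in apsMC706 and in CTO19, and 0 members had a lower difference of the responses (Pold2, adjusted p = 0.0509). The numbers are not known to pair libraries.

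Leaving out each library in turn gave 39 to 46 members lower over both lines, 46 in apsMC706 and 43 to 45 in CTO19. The difference of the responses was higher for 44 to 45 members and lower for 0 to 1; Pold2 lost its call without either apsMC706 EM library, either apsMC706 noEGF library or CTO19 EM replicate 2. Other genes higher in CTO19 in EM numbered 4 to 6. Over both lines, Mcm7, Gins2, Lig1, Timeless, Chaf1b and Ccne1 lost their calls without either apsMC706 noEGF library, and Gins2 also without either apsMC706 EM library. Without CTO19 noEGF replicate 2, Rfc3 was at -0.42 over both lines (adjusted p = 0.0451). The Rfc3 log2 fold change, noEGF against EM in CTO19, turned from 0.02 to -0.048 without that library (adjusted p = 0.512) and was 0.1063 without CTO19 noEGF replicate 1. The cause of these changes was not tested. Depth did not limit the members: the lowest level, Fen1 in apsMC706 in noEGF, was 2.05 CPM against a floor of at most 0.0868.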
